A study of Mus musculus with 24 samples.

Results

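The genes described here are 36 genes of glycolysis, its branch points and the response to low oxygen, found by their symbols in a table of 43280 gene symbols, all 36 of which were in the table. They comprise 9 genes of hexose phosphorylation and upper glycolysis, 7 of lower glycolysis, 3 that set the fate of pyruvate and lactate, and 2 enzymes that make or break fructose-2,6-bisphosphate. A further 4 encode hypoxia-inducible factor (HIF) alpha subunits and their oxygen sensors, 8 are known targets of that response, and 3 act in gluconeogenesis. The study sorted epithelial cells from small intestinal crypts of male Lgr5-EGFP C57BL/6 mice and sequenced the total RNA of each sort. The mice, littermates aged 11 to 15 weeks, had received 7.5 µg of neuregulin 1 (NRG1, a ligand of ErbB receptors) or PBS by intraperitoneal injection every 12 hours for 5 days, and tissue was taken on day 6. Dead, CD31-positive and CD45-positive cells were gated out, and the rest were separated by EGFP and CD24 into Lgr5high-CD24low crypt base columnar stem cells, Lgr5med-CD24low immediate progenitors, Lgr5low-CD24low subsequent progenitors and Lgr5neg-CD24neg differentiated cells. There were 24 libraries, 3 for each of the 8 combinations of population and treatment.

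Every mouse carried the Lgr5-EGFP reporter, so the controls share it with the treated mice, and all groups share strain and sex. Each library pools the cells of 1 gate from 1 animal, and each of the 6 mice gave 1 library of every population, as read from the shared prefix of the sample descriptions. Within every group, replicates 1 and 2 came from mice aged 15 weeks, and replicate 3 from a mouse aged 11 weeks. In such sorted bulk RNA, fewer cells of a type and less RNA per cell cannot be told apart.

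Glycolysis splits glucose into pyruvate in the cytosol. Hexokinases trap glucose by phosphorylation, phosphofructokinase commits it to the pathway and is switched on by fructose-2,6-bisphosphate, and pyruvate kinase makes pyruvate, which lactate dehydrogenase can reduce to lactate. HIF alpha subunits are marked for destruction by prolyl hydroxylases when oxygen is present, and when they persist they bind short DNA elements and raise many glycolytic genes. In the intestine, enterocytes also take up and process dietary sugars and hold gluconeogenic enzymes.

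Total counts were 11176264 to 23343499 per library (median 19660147.5), of which 37.6% to 62.4% fell on the mitochondrial ribosomal RNAs, and 6192378 to 12549810 counts lay outside them. Lgr5 RNA followed the gates, which were set by its own EGFP reporter: mean Lgr5 was 171, 28.9, 8.39 and 1.30 CPM (read counts scaled to the effective library size) from Lgr5high to Lgr5neg in PBS mice, and 178, 54.5, 13.2 and 1.43 CPM in NRG1 mice. A list of 14 enterocyte markers summed to 1178 to 1696 CPM in Lgr5high and 47700 to 79440 CPM in Lgr5neg of PBS mice. The counts of mt-Rnr1 per 100 of mt-Rnr2, a ratio between both mitochondrial ribosomal RNAs, differed by treatment. With PBS and with NRG1 the ratio was 18.5 to 20.5 and 38.0 to 51.3 in Lgr5med, and 27.6 to 32.1 and 38.4 to 54.2 in Lgr5low. It was 20.2 to 24.5 and 40.8 to 43.5 in Lgr5neg, and none of these gates overlapped between treatments. In Lgr5high it was 18.1 to 42.9 and 38.6 to 51.6, which overlapped. The part of this in the treatment results was not tested. A floor of 3 counts corresponded to 0.112 to 0.247 CPM. The precision behind each value differs by gene: Ldha had 264376 counts over the 24 libraries, Hk1 1060, Ankrd37 396 and Ldhb 224.

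The promoters of 4 members are shown because these genes carry the treatment results and differ in their match to the core letters of the HIF element. Sequences are from RefSeq (GRCm38.p6), each 300 bases from 250 before to 50 after an annotated start, read 5′ to 3′ on the gene's strand. Capitals mark each match to ACGTG or GCGTG on either strand (CACGT and CACGC on the other strand), and a run CACGTG holds a match on both strands that overlap each other.
Hk2, chr6:82774405-82774704, minus strand: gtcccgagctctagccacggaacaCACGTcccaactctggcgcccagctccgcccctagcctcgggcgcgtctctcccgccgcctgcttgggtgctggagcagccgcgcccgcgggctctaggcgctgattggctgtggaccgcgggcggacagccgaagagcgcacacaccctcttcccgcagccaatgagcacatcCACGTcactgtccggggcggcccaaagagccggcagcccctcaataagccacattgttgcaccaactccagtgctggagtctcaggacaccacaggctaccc
Ldha, chr7:46845554-46845853, plus strand: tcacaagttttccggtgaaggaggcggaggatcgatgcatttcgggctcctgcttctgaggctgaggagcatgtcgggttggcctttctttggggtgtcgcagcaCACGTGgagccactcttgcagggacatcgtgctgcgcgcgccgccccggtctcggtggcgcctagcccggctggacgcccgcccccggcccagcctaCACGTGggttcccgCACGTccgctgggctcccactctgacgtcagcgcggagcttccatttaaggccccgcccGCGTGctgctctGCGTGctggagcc
Pfkp, chr13:6648722-6649021, minus strand: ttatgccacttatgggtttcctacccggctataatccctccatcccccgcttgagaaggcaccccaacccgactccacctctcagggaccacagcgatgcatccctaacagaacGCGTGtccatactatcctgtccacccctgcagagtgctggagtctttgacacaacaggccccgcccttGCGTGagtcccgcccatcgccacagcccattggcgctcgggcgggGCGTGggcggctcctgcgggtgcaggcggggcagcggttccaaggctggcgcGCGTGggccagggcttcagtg
Gapdh, chr6:125165724-125166023, minus strand: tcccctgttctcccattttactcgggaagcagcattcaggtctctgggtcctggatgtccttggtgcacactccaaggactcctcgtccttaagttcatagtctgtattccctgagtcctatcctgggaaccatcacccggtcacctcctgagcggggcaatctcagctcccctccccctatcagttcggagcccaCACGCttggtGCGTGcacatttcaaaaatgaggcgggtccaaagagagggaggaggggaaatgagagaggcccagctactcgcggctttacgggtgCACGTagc
Hk2 held 2 matches, both of ACGTG. Ldha held 7, of which 5 were ACGTG and 2 GCGTG. Pfkp held 4, all GCGTG, and Gapdh held 3, of which 1 was ACGTG. The promoters of Pklr held 0. The RefSeq table had 51 promoters for 34 members, and 35 of the 51 (68.6%) held a core, against 14380 of all 32851 promoters (43.8%). ACGTG alone was in 45.1% of member promoters and 19.6% of all, and the palindrome CACGTG in 9.80% and 7.15%. Counted by gene, 27 of the 34 members held a core, against 12628 of all 27025 genes (46.7%). Known targets of the HIF response are among the members by choice, so these shares are no separate result about them. A match is a run of letters, not a bound site, and no binding was measured here.

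In PBS mice most of the members that differed between gates were lower in the gate nearer the stem cell, and 4 (Hk2, Ddit4, Pdk1 and Ldhb) were higher in Lgr5high than in Lgr5neg. Together the 36 members took 0.221% to 0.268% of the counts outside mitochondrial ribosomal RNA in Lgr5high, 0.291% to 0.322% in Lgr5med, 0.375% to 0.381% in Lgr5low and 0.512% to 0.598% in Lgr5neg, with no overlap between neighbouring gates. Of their counts over the 24 libraries, Ldha held 264376 and Gapdh 126793, so this share follows those genes most. A difference is called here when the edgeR quasi-likelihood test gives a Benjamini-Hochberg adjusted p under 0.05 over all genes tested, and log2 differences between gates are the gate nearer the stem cell minus the next. Of 35 members that passed the filter on low counts (Eno2 did not), Lgr5high was lower than Lgr5med for 6 and higher for 0, where 9.17% of all genes were called (2.44% higher, 6.72% lower). Lgr5med was lower than Lgr5low for 7 and higher for 0 (7.59% of all genes called, 2% higher and 5.59% lower). Lgr5low was lower than Lgr5neg for 19 and higher for 2 (55.8% called, 30.6% higher and 25.3% lower). Over the whole range, Lgr5high was lower than Lgr5neg for 22 and higher for 4 (67.4% called, 35.4% higher and 32% lower). The members' median log2 differences for these comparisons were -0.12, -0.40, -0.84 and -1.40, and the medians of all genes 0.00, -0.00, 0.11 and 0.09.

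**Figure D1:**
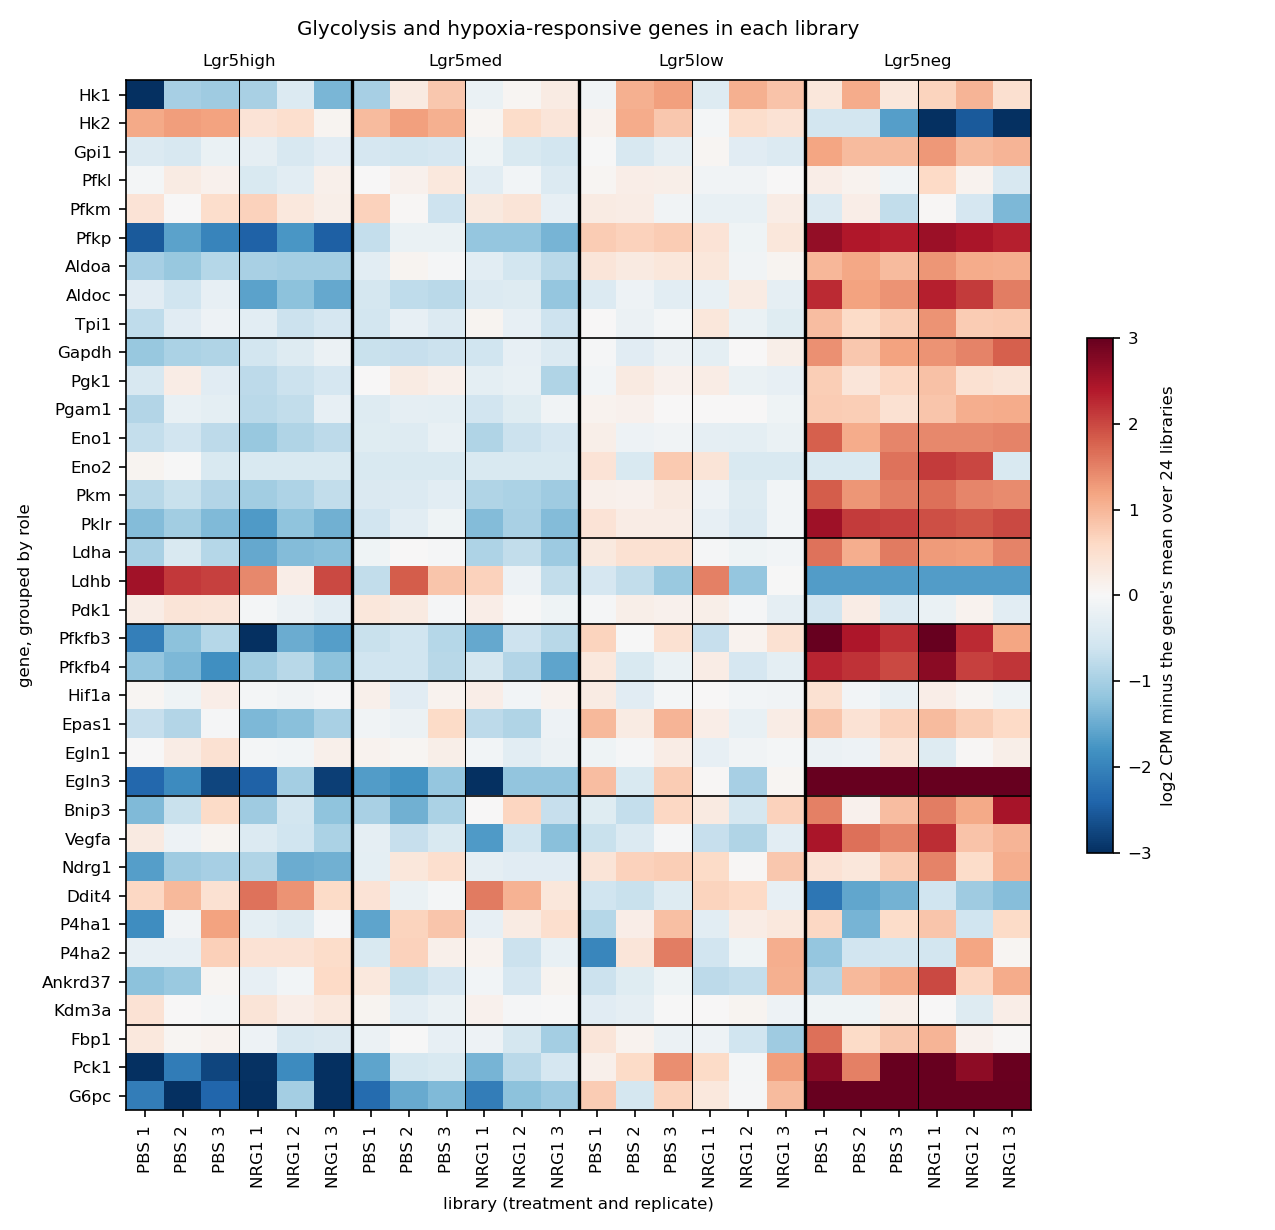
Each cell is the log2 CPM of 1 gene (vertical axis, grouped by role) in 1 library (horizontal axis), minus that gene's mean over the 24 libraries, with colours clipped at 3 on either side. Most genes of glycolysis and gluconeogenesis are red in the 6 Lgr5neg libraries, while Hk2, Ddit4 and Ldhb are blue there; Eno2 is at or near 0 counts throughout.

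Among the 9 genes of hexose phosphorylation and upper glycolysis, 5 were lower and 1 higher in Lgr5low than in Lgr5neg (median log2 difference -0.71). Pfkp, the platelet-type phosphofructokinase (chr13:6579768-6648777, minus strand, GRCm38), moved at every step. Its CPM in PBS replicates 1, 2 and 3 was 7.25, 13.8 and 10.4 in Lgr5high, 25.3, 36.5 and 36.4 in Lgr5med, 70.5, 67.2 and 70.6 in Lgr5low, and 261, 222 and 215 in Lgr5neg. No library of one gate reached the range of the next. It was 3.11-fold higher in Lgr5med than in Lgr5high (log2 difference -1.64 ± 0.19 SE, adjusted p = 5.98e-05), 2.12-fold higher in Lgr5low than in Lgr5med (-1.09 ± 0.18, adjusted p = 0.0012) and 3.37-fold higher in Lgr5neg than in Lgr5low (-1.75 ± 0.18, adjusted p = 1.92e-07). Pfkp shares 748 exon bases (5.58% of its exon length) with Pitrm1 on the other strand, which had 21603 counts against 30071 for Pfkp, and no source used here gives the strand setting of the counting.

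The other phosphofructokinases did not follow Pfkp: Pfkl, the liver type, stayed between 14.97 and 20.02 CPM and Pfkm, the muscle type, between 1.89 and 5.28 CPM in the 12 PBS libraries, with no call between neighbouring gates. Aldoa, the main ubiquitous aldolase (chr7:126795234-126809108, minus strand), was 56.7, 51.5 and 62.3 CPM in Lgr5high and 90.7, 120 and 110 CPM in Lgr5med, without overlap, a 1.88-fold difference (log2 -0.91 ± 0.13 SE, adjusted p = 3.09e-04). It was 146, 136 and 144 CPM in Lgr5low and 224, 252 and 217 CPM in Lgr5neg (log2 difference -0.71, adjusted p = 1.36e-04). Gpi1 (glucose-6-phosphate isomerase), Tpi1 (triosephosphate isomerase) and Aldoc (the brain-type aldolase) were called at no step before the last, although all Lgr5low libraries lay above all Lgr5med libraries in each. At the last step Lgr5low was below Lgr5neg by log2 differences of -1.28, -0.84 and -2.02. Hk1, the ubiquitous hexokinase, was 0.137 to 4.62 CPM over the PBS libraries and was called lower in Lgr5high than in Lgr5neg (-2.25, adjusted p = 0.0024).

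Hk2, the hexokinase isoform typical of proliferating and insulin-responsive cells (chr6:82725025-82774454, minus strand), ran the other way. Its PBS values were 45.5, 49.5 and 48.2 CPM in Lgr5high, 40.1, 48.4 and 43.1 in Lgr5med, 22.4, 44.6 and 36.3 in Lgr5low, and 14.2, 14.0 and 6.498 in Lgr5neg. Neighbours among the first 3 gates overlapped, and all 3 Lgr5neg libraries lay below them. Hk2 was 2.95-fold higher in Lgr5low than in Lgr5neg (log2 1.56 ± 0.27 SE, adjusted p = 1.39e-04) and 4.09-fold higher in Lgr5high (2.03 ± 0.27, adjusted p = 6.58e-06).

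All 6 testable genes of lower glycolysis were lower in Lgr5low than in Lgr5neg (median log2 difference -1.37). Pklr, the liver and red cell pyruvate kinase (chr3:89136142-89146784, plus strand), was 14.7, 17.7 and 14.6 CPM in Lgr5high, 24.5, 29.4 and 33.5 in Lgr5med, 48.5, 42.6 and 42.7 in Lgr5low and 215, 157 and 151 in Lgr5neg of PBS mice. Each gate lay wholly above the one before it. The log2 differences were -0.89 ± 0.16 SE (adjusted p = 0.0014), -0.62 ± 0.16 (adjusted p = 0.0175) and -1.98 ± 0.16 (adjusted p = 4.22e-09). Pklr shares 711 exon bases (21.97%) with Hcn3 on the other strand, which had 490 counts against 22029. Its sister Pkm, the pyruvate kinase of most other tissues (chr9:59656368-59679375, plus strand), was 53.3, 59.6 and 51.7 CPM in Lgr5high, 70.4, 71.4 and 76.4 in Lgr5med, 105, 103 and 115 in Lgr5low and 334, 237 and 277 in Lgr5neg. Its log2 differences were -0.57 ± 0.13 from Lgr5med to Lgr5low (adjusted p = 0.011) and -1.40 ± 0.14 from Lgr5low to Lgr5neg (adjusted p = 4.87e-08).

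Gapdh, which makes the first high-energy phosphate of the lower pathway (chr6:125161715-125166467, minus strand), had these PBS values: 115, 130 and 135 CPM in Lgr5high, 159, 156 and 161 in Lgr5med, 248, 201 and 223 in Lgr5low, and 652, 446 and 583 in Lgr5neg. No gate overlapped the next, and the calls were from Lgr5med to Lgr5low (log2 -0.50 ± 0.15 SE, adjusted p = 0.0401) and from Lgr5low to Lgr5neg (-1.33 ± 0.15, adjusted p = 2.89e-07). Among annotated transcripts, those of 177 other genes held a stretch at least 90% like Gapdh, and 171 of these genes were pseudogenes. Over all their exons these genes had 18214 counts, 14.4% as many as Gapdh, of which 7284 were of the coding gene Peli2. The level of Gapdh is uncertain by how the counting treated reads of such stretches, whose number is not known. Eno1 (enolase), Pgk1 (phosphoglycerate kinase) and Pgam1 (phosphoglycerate mutase) were called lower in Lgr5low than in Lgr5neg, with log2 differences of -1.51, -0.49 and -0.60. Eno2, the neuronal enolase, had 0 counts in 16 of the 24 libraries and never passed the filter.

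Ldha, the lactate dehydrogenase subunit that favours lactate formation (chr7:46841475-46855627, plus strand), was highest in Lgr5neg. It was 262, 371 and 282 CPM in Lgr5high, 470, 517 and 502 in Lgr5med, 622, 698 and 706 in Lgr5low and 1586, 1097 and 1503 in Lgr5neg. The gates did not overlap, and the calls were from Lgr5high to Lgr5med (log2 -0.70 ± 0.16 SE, adjusted p = 0.00996) and from Lgr5low to Lgr5neg (-1.06 ± 0.17, adjusted p = 2.15e-05), while the middle step was -0.45 (adjusted p = 0.111). Ldhb, the heart-type subunit (chr6:142490249-142507957, minus strand), was almost absent: 1.73, 1.29 and 1.22 CPM in Lgr5high, 0.091, 1.02 and 0.47 in Lgr5med, 0.125, 0.0896 and 0.0467 in Lgr5low, and 0 counts in all 3 Lgr5neg libraries. The Lgr5neg floor was 0.225 to 0.247 CPM, below all 3 Lgr5high values (adjusted p = 1.07e-04 for Lgr5high against Lgr5neg). Per kilobase of exon, Ldha made up at least 98.6% of the lactate dehydrogenase signal in each of the 24 libraries. Pdk1, a kinase that inhibits pyruvate dehydrogenase and so keeps pyruvate from becoming acetyl-CoA, was 28.4, 32.1 and 31.2 CPM in Lgr5high and 16.2, 28.3 and 18.4 CPM in Lgr5neg, barely apart (log2 0.53, adjusted p = 0.0132), and its call was lost without Lgr5neg PBS replicate 1 (adjusted p = 0.0568).

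Both enzymes of fructose-2,6-bisphosphate, the activator of phosphofructokinase, were called lower in Lgr5low than in Lgr5neg. Pfkfb3 (chr2:11471433-11554077, minus strand) was 1.14, 2.09 and 2.72 CPM in Lgr5high, 3.14, 3.26 and 2.73 in Lgr5med, 8.08, 4.97 and 6.91 in Lgr5low and 47.8, 27.4 and 23.4 in Lgr5neg. Its log2 difference was -1.13 ± 0.30 SE from Lgr5med to Lgr5low (adjusted p = 0.0256) and -2.31 ± 0.28 from Lgr5low to Lgr5neg (adjusted p = 1.86e-06). Pfkfb4 (chr9:108991778-109032228, plus strand) was 4.38, 3.81 and 2.68 CPM in Lgr5high, 6.46, 6.44 and 5.50 in Lgr5med, 12.3, 7.17 and 8.59 in Lgr5low and 48.7, 44.6 and 39.3 in Lgr5neg. It was called from Lgr5high to Lgr5med (-0.76 ± 0.22, adjusted p = 0.0333) and from Lgr5low to Lgr5neg (-2.25 ± 0.20, adjusted p = 2.31e-08).

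Of the HIF alpha subunits, Hif1a did not differ between gates by the test and Epas1 did. Hif1a, the broadly expressed subunit (chr12:73901375-73947530, plus strand), was 32.4, 28.1 and 35.5 CPM in Lgr5high, 34.7, 24.3 and 33.4 in Lgr5med, 36.6, 24.4 and 29.8 in Lgr5low and 42.7, 29.2 and 26.7 in Lgr5neg of PBS mice. All 4 gates overlapped and no step was called (Lgr5high against Lgr5neg: log2 -0.05, adjusted p = 0.825). Epas1, which encodes HIF-2 alpha (chr17:86753700-86833410, plus strand), was 14.3, 12.6 and 22.7 CPM in Lgr5high, 21.5, 20.6 and 34.5 in Lgr5med, 45.8, 27.4 and 46.7 in Lgr5low and 41.0, 31.4 and 37.3 in Lgr5neg. Neighbouring gates overlapped, and Lgr5high was 2.23-fold below Lgr5neg (-1.16 ± 0.26 SE, adjusted p = 0.00113). The oxygen sensors parted. Egln1, the main prolyl hydroxylase, stayed at 33.2 to 50.8 CPM in the 12 PBS libraries with no call.

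Egln3, a prolyl hydroxylase gene that is itself a known HIF target (chr12:54178981-54203860, minus strand), was among the members that differed most between Lgr5high and Lgr5neg. It was 0.273, 0.419 and 0.181 CPM in Lgr5high, 0.50, 0.449 and 0.752 in Lgr5med, 3.54, 1.30 and 3.13 in Lgr5low and 30.1, 24.1 and 31.8 in Lgr5neg. The gates did not overlap; the log2 differences were -2.23 ± 0.36 SE from Lgr5med to Lgr5low (adjusted p = 8.74e-04), -3.44 ± 0.30 from Lgr5low to Lgr5neg (adjusted p = 1.07e-08) and -6.57 ± 0.38 from Lgr5high to Lgr5neg (adjusted p = 1.32e-11).

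The 8 targets of the hypoxic response did not move as a group: from Lgr5low to Lgr5neg 1 was called lower, 1 higher and 6 not at all (median log2 difference -0.06). Vegfa, the endothelial growth factor (chr17:46016993-46032369, minus strand), was 20.6, 15.4 and 18.1 CPM in Lgr5high, 14.2, 10.5 and 12.4 in Lgr5med, 10.7, 12.9 and 16.5 in Lgr5low, then 93.9, 53.7 and 47.9 in Lgr5neg. The Lgr5neg libraries stood apart from all other gates, 4.92-fold above Lgr5low (log2 -2.30 ± 0.23 SE, adjusted p = 2.46e-07). All Lgr5high libraries also lay above all Lgr5med libraries, but Vegfa was not called at that step. Ndrg1, a stress-responsive differentiation gene (chr15:66929318-66969640, minus strand), made its change at the first step: 12.2, 18.4 and 19.4 CPM in Lgr5high against 31.8, 48.7 and 54.5 in Lgr5med (-1.43 ± 0.20, adjusted p = 3.28e-04). It then held at 50.7, 62.7 and 64.8 CPM in Lgr5low and 51.9, 49.1 and 65.5 CPM in Lgr5neg. Ddit4, an inhibitor of mTORC1 signalling (chr10:59949669-59951834, minus strand), ran against the rest, with 24.6, 31.1 and 21.6 CPM in Lgr5high, 21.1, 13.9 and 15.2 in Lgr5med, 10.4, 9.99 and 12.0 in Lgr5low and 3.44, 5.31 and 5.84 in Lgr5neg. It was 5.27-fold higher in Lgr5high than in Lgr5neg (2.40 ± 0.22, adjusted p = 1.39e-08). The histone demethylase gene Kdm3a held at 42.9 to 74.3 CPM, and Bnip3, P4ha1, P4ha2 and Ankrd37 were at most 3.45 CPM in PBS libraries, with no call in these mice.

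All 3 gluconeogenic genes were called lower in Lgr5low than in Lgr5neg (median log2 difference -1.98). G6pc, which releases free glucose (chr11:101367561-101377903, plus strand), was 1.09, 0.457 and 0.862 CPM in Lgr5high, 0.91, 1.67 and 1.93 in Lgr5med, 8.49, 3.41 and 7.93 in Lgr5low and 75.5, 40.9 and 80.9 in Lgr5neg. Its log2 differences were -2.14 ± 0.42 SE from Lgr5med to Lgr5low (adjusted p = 0.00795) and -3.32 ± 0.37 from Lgr5low to Lgr5neg (adjusted p = 6.54e-06). Pck1, the first committed enzyme of the pathway, was 1.46 to 3.16 CPM in Lgr5high and 40.1 to 152 CPM in Lgr5neg (-5.42, adjusted p = 5.58e-05). Fbp1, fructose-1,6-bisphosphatase, was 9.06 to 10.8 CPM in Lgr5high and 12.9 to 27.5 CPM in Lgr5neg (-0.94, adjusted p = 0.00156).

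Calls in the PBS mice depended on 1 library as follows. From Lgr5high to Lgr5med, the Ldha call was lost without Lgr5high PBS replicate 1 (adjusted p = 0.0782) or replicate 3 (0.0552) or Lgr5med PBS replicate 2 (0.0525), within a range of 9.94e-05 to 0.255 over all alternatives. The Pfkfb4 call at that step was lost without Lgr5high PBS replicate 2 or 3 or any Lgr5med PBS replicate (0.0609 to 0.177). From Lgr5med to Lgr5low, G6pc was lost without Lgr5low PBS replicate 1 (0.0511), Pkm without Lgr5med PBS replicate 1 or 2 or Lgr5low PBS replicate 3 (0.0536 to 0.067), and Pklr without Lgr5med PBS replicate 1 or 2 or Lgr5low PBS replicate 1 (0.0598 to 0.132). Gapdh was lost at that step without any Lgr5med PBS replicate, Lgr5low PBS replicate 1 or 3 or Lgr5high PBS replicate 2 (0.0517 to 0.153), and Pfkfb3 without any Lgr5med PBS replicate or Lgr5low PBS replicate 1 or 3 (0.0688 to 0.114). From Lgr5low to Lgr5neg, Pgk1 was lost without Lgr5low PBS replicate 1 or Lgr5neg PBS replicate 1 or 3 (0.0582 to 0.0884). With the mouse as a block, the Lgr5med to Lgr5low step gave 11 calls, all lower (10.7% of all genes called), adding Aldoa (-0.42, adjusted p = 0.0412), Pfkfb4 (-0.59, 0.0346), Epas1 (-0.65, 0.0118) and Ndrg1 (-0.43, 0.0479). At the Lgr5high to Lgr5med step the block gave 9 calls (12.4% of all genes), adding Hk1, Epas1 and Ddit4, with log2 differences of -1.80, -0.63 and 0.63.

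Markers of other cells moved along the same axis. All 14 enterocyte markers, 13 of them already from Lgr5med to Lgr5low, were called lower in Lgr5low than in Lgr5neg (median log2 difference -2.81). Of 9 goblet cell markers, 8 were called lower and 1 higher in Lgr5high than in Lgr5med, and the list's sum was 14460 to 26340 CPM in Lgr5low and 4867 to 6873 CPM in Lgr5neg. A T lymphocyte list summed to 90.6 to 197 CPM in Lgr5neg and to 2.33 to 4.41 CPM in the other PBS gates, and 12 genes of the G2/M phase of the cell cycle to 1350 to 2026 CPM in the first 3 gates and 67.9 to 93.2 CPM in Lgr5neg. Within the T lymphocyte list Cd3d was at 0 in all Lgr5high and Lgr5med libraries of PBS mice. The part of these markers in the members' differences was not tested.

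The same steps in NRG1 mice, which are other animals, are given beside these. There Lgr5high was lower than Lgr5med for 2 members (3.11% of all genes called, 0.594% higher and 2.52% lower), Pfkp (log2 -0.96, adjusted p = 0.00937) and Ndrg1 (-0.97, adjusted p = 0.0373). Lgr5med was lower than Lgr5low for 5 (4.72%, 0.923% higher and 3.8% lower), Pfkp (-1.47), Pklr (-0.95), Ldha (-0.85), Pkm (-0.77) and Aldoa (-0.67). Lgr5low was lower than Lgr5neg for 22 and higher for 3 (57%, 30.4% higher and 26.6% lower), and Lgr5high lower than Lgr5neg for 24 and higher for 4 (65.5%, 33.5% higher and 32% lower). At the last step the 21 members called in PBS mice were all called in the same direction in NRG1 mice, where they made up 84% of the 25 calls. The share of all genes called in both sets of mice is not given here, so this overlap cannot be read as particular to the members. The additional calls were Ldhb, Epas1 (-0.72), Ndrg1 (-0.62) and Bnip3 (-1.77). In PBS mice Epas1 and Ndrg1 had the opposite sign at this step, with overlapping gates and no call. Epas1 was 45.8, 27.4 and 46.7 CPM there in Lgr5low and 41.0, 31.4 and 37.3 CPM in Lgr5neg. Ndrg1 was 50.7, 62.7 and 64.8 CPM in Lgr5low and 51.9, 49.1 and 65.5 CPM in Lgr5neg. Ldhb, 1 of the 3 called higher, had 10, 1 and 3 counts in the Lgr5low libraries and 0 in every Lgr5neg library. Its call rests on counts near the floor, and it did not pass the filter in the NRG1 comparison of either gate. Hk2 differed by 1.56 in PBS mice and by 3.28 in NRG1 mice (adjusted p = 6.74e-09).

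Without Lgr5high NRG1 replicate 1 or 3 the Pfkp call at the first step of NRG1 mice was lost (adjusted p = 0.0719 and 0.0635), and the Ndrg1 call there was lost without Lgr5high NRG1 replicate 2 or 3, any Lgr5med NRG1 replicate, Lgr5low NRG1 replicate 1 or Lgr5neg NRG1 replicate 3 (0.0514 to 0.162). Aldoa at the middle step was lost without Lgr5med NRG1 replicate 2 or 3 or Lgr5low NRG1 replicate 1 or 3 (0.0510 to 0.0695). At the last step Bnip3 was lost without Lgr5low NRG1 replicate 2 or Lgr5neg NRG1 replicate 3 (0.0551 and 0.0783), Ndrg1 without Lgr5low NRG1 replicate 1 or 2 or Lgr5neg NRG1 replicate 1 or 3 (0.0615 to 0.184), and Ldhb without Lgr5low NRG1 replicate 1 or Lgr5neg NRG1 replicate 2 (0.106 and 0.0544). With the mouse as a block the first step of NRG1 mice gave 5 calls (6.38% of all genes), adding Aldoa, Ldha and Epas1 (-0.47, -0.47 and -0.61), and the middle step 11 (8.85%), adding Gapdh, Eno1, Pfkfb4, Epas1 and Ndrg1 as lower (-0.38 to -0.79) and Ddit4 as higher (0.64).

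**Figure D2:**
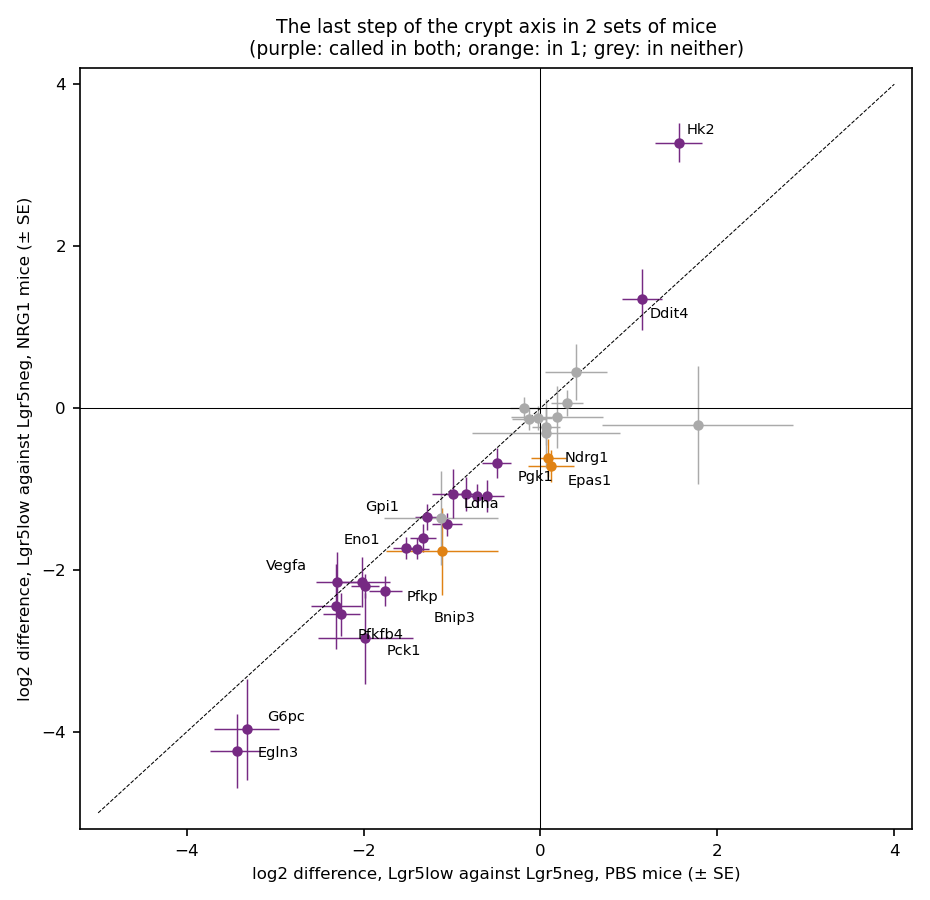
Each point is 1 gene, with its log2 difference of Lgr5low from Lgr5neg in PBS mice on the horizontal axis and in NRG1 mice on the vertical axis, bars showing the SE and the dashed line equality. Purple genes are called in both sets of mice and orange ones in NRG1 mice only; Hk2 sits highest, at 1.56 in PBS mice and 3.28 in NRG1 mice. Ldhb is not drawn because all 6 Lgr5neg libraries had 0 counts.

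The comparison the study was built on is NRG1 against PBS within each population, and the 4 such comparisons use the same 6 mice. In the Lgr5high stem cell gate, 34 members passed the filter (Eno2 and Egln3 did not), and Hk2, Vegfa, Ldha and Pdk1 were called lower and Gapdh higher after NRG1, at a background of 7.33% of all genes called (3.18% higher, 4.15% lower). The median change of the members was -0.16 on the log2 scale and that of all genes 0.01. In 9 members all NRG1 libraries lay below all PBS libraries (14% of all genes did so) and in 1 above them (13%).

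Hk2 was 45.5, 49.5 and 48.2 CPM in the Lgr5high libraries of PBS mice and 27.5, 29.6 and 21.8 CPM in those of NRG1 mice. The groups lay well apart, and the change was -0.84 ± 0.13 SE, a 1.79-fold fall (adjusted p = 0.0012). Gapdh was 115, 130 and 135 CPM with PBS and 173, 194 and 223 CPM with NRG1, all NRG1 libraries above all PBS libraries (0.65 ± 0.12, adjusted p = 0.00475). Both calls held under every alternative tried, with adjusted p up to 0.0484 for Hk2 and 0.0389 for Gapdh.

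Ldha was 262, 371 and 282 CPM with PBS and 177, 209 and 214 CPM with NRG1 in Lgr5high, without overlap (-0.60 ± 0.14 SE, adjusted p = 0.0156). Vegfa was 20.6, 15.4 and 18.1 CPM against 12.8, 11.2 and 8.79 CPM (-0.71 ± 0.17, adjusted p = 0.0181). Pdk1 (chr2:71873224-71903858, plus strand) was 28.4, 32.1 and 31.2 CPM against 23.4, 21.6 and 19.4 CPM (-0.50 ± 0.13, adjusted p = 0.0256). In each of these genes the lowest PBS library stood above the highest NRG1 library. The Ldha call was lost without Lgr5high PBS replicate 2 (adjusted p = 0.0793) or Lgr5high NRG1 replicate 1 (0.0780), within 4.19e-05 to 0.0793 over all alternatives. The Vegfa call was lost without Lgr5high PBS replicate 1 (0.0685) or Lgr5high NRG1 replicate 3 (0.0765), and in 1 model of all 24 libraries (0.299), within 3.82e-04 to 0.299. The Pdk1 call was lost without Lgr5high PBS replicate 2 (0.0908) or Lgr5high NRG1 replicate 2 (0.0762) or 3 (0.0988) and in the 24-library model (0.0978), within 0.00548 to 0.123. Neither HIF alpha subunit was called in Lgr5high. Hif1a was 32.4, 28.1 and 35.5 CPM with PBS and 29.8, 28.7 and 30.0 CPM with NRG1, overlapping (-0.10, adjusted p = 0.685). Epas1 was 14.3, 12.6 and 22.7 CPM against 9.05, 9.69 and 11.8 CPM, every NRG1 library being below every PBS library (-0.68 ± 0.21 SE, adjusted p = 0.0595). Pkm did not separate either, at 53.3, 59.6 and 51.7 CPM against 46.1, 49.8 and 56.9 CPM (-0.09, adjusted p = 0.697), and Ldhb was 1.73, 1.29 and 1.22 CPM against 0.765, 0.269 and 1.15 CPM (-0.95 ± 0.49, adjusted p = 0.271). The 12 G2/M genes were all called higher in this gate, their sum rising from 1834 to 2026 CPM with PBS to 2710 to 3449 CPM with NRG1, and their part in these changes was not tested.

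In the Lgr5med progenitor gate, 32 members passed the filter (Eno2, Ldhb, Bnip3 and P4ha2 did not), and 6 were called lower and 0 higher after NRG1, at a background of 9.55% of all genes called (3.76% higher, 5.79% lower). All 6 are glycolytic enzymes: Pfkp, Ldha, Pklr, Hk2, Pkm and Pgk1. By role, 2 of 9 genes of upper glycolysis, 3 of 6 of lower glycolysis and 1 of 2 of pyruvate fate were called, and none of the 6 tested targets of the hypoxic response, whose median change was 0.01. The members' median change was -0.19 and that of all genes 0.01, and the NRG1 libraries lay wholly below the PBS libraries in 10 members (16.7% of all genes) and wholly above in 1 (13.8%).

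Pfkp was 25.3, 36.5 and 36.4 CPM in the Lgr5med libraries of PBS mice and 18.5, 18.7 and 15.8 CPM in those of NRG1 mice (-0.87 ± 0.16 SE, adjusted p = 0.00476). Pklr was 24.5, 29.4 and 33.5 CPM against 14.7, 18.4 and 14.8 CPM (-0.84 ± 0.15, adjusted p = 0.00482). Ldha was 470, 517 and 502 CPM against 268, 307 and 240 CPM (-0.85 ± 0.14, adjusted p = 0.00237). The groups were far apart in all 3, with the highest NRG1 library well under the lowest PBS library, and leaving out any 1 library kept these calls. In the 15-week-old mice alone the Pfkp and Pklr calls were lost (adjusted p = 0.0525 and 0.0537).

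Hk2 was 40.1, 48.4 and 43.1 CPM with PBS and 21.5, 30.6 and 26.7 CPM with NRG1 in Lgr5med (-0.72 ± 0.14 SE, adjusted p = 0.00805). Pkm was 70.4, 71.4 and 76.4 CPM against 51.0, 49.0 and 45.5 CPM (-0.56 ± 0.11, adjusted p = 0.00744). Pgk1 (chrX:106187100-106203699, plus strand) was 51.5, 60.4 and 56.6 CPM against 41.5, 43.6 and 27.4 CPM (-0.56 ± 0.16, adjusted p = 0.0400). None of the 3 overlapped, and the Pgk1 libraries varied most, the third NRG1 library being the lowest. The Hk2 call was lost without Lgr5med PBS replicate 2 (adjusted p = 0.0540, within 3.12e-05 to 0.0685 over all alternatives) and the Pkm call without Lgr5med PBS replicate 3 (0.0538, within 6.78e-04 to 0.0675). The Pgk1 call was lost without any of the 3 Lgr5med PBS libraries (0.0504, 0.153 and 0.133) or NRG1 replicate 2 or 3 (0.0524 and 0.0658), within 0.00126 to 0.173.

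Several other members of the Lgr5med gate did not pass the test, which had no block. With the replicate number as a block 12 members were called in this gate, and they are not named here. The share of all genes at that setting is not given, so this count is no result about the members. Ddit4 was 21.1, 13.9 and 15.2 CPM with PBS and 46.6, 32.9 and 20.2 CPM with NRG1, overlapping by 1 library (1.01 ± 0.31 SE, adjusted p = 0.0907). Epas1 was 21.5, 20.6 and 34.5 CPM against 13.4, 12.4 and 20.8 CPM (-0.70 ± 0.25, adjusted p = 0.107), and Hif1a 34.7, 24.3 and 33.4 CPM against 35.7, 29.3 and 33.6 CPM. Gapdh, which was higher in Lgr5high, was 159, 156 and 161 CPM against 167, 214 and 192 CPM here, all NRG1 libraries above, at 0.28 (adjusted p = 0.169). Vegfa was 14.2, 10.5 and 12.4 CPM against 5.14, 11.3 and 7.07 CPM, overlapping by 1 library (-0.63 ± 0.25, adjusted p = 0.132), and Ldhb, untested here, was at most 1.02 CPM in these 6 libraries. In this gate the sum of the enterocyte markers was 2314 to 2793 CPM with PBS and 1224 to 1919 CPM with NRG1, without overlap, with 5 of 14 called lower. The sum of the G2/M genes was 1643 to 1682 CPM and 1956 to 2305 CPM. The stem cell list summed to 1449 to 2591 CPM and 2456 to 3018 CPM, and the part of these shifts in the members' changes was not tested.

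**Figure D3:**
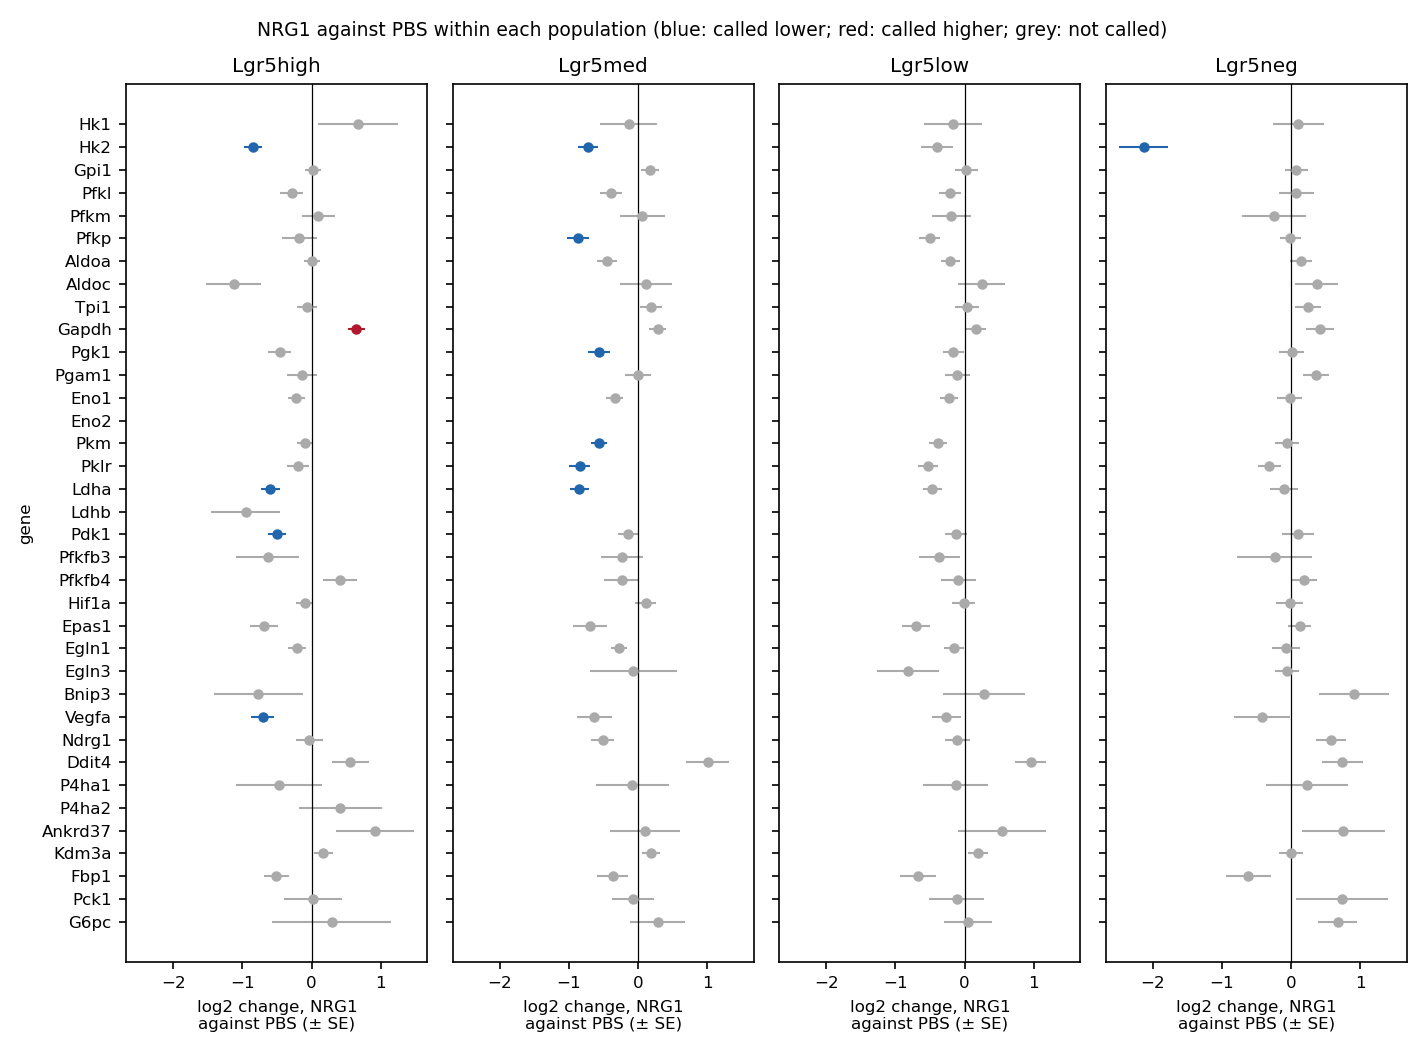
The log2 change with NRG1 (horizontal axis, points, with the SE as bars) is drawn for each gene (vertical axis) in each of the 4 sorted populations, blue where called lower, red where called higher and grey otherwise; genes that did not pass the filter have no point. The calls sit in Lgr5high (5) and Lgr5med (6), with none in Lgr5low and Hk2 alone, at -2.13, in Lgr5neg.

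In the Lgr5low gate no member of 33 tested was called by edgeR (0.443% of all genes were, 0.143% higher and 0.3% lower), 7 had an unadjusted p under 0.05 (13.5% of all genes did), and DESeq2 called 2 (2.6% of all genes), Ldha (-0.46, adjusted p = 0.0265) and Ddit4 (0.96, adjusted p = 0.00776). The members' median change was -0.15 and that of all genes -0.00. Ldha was 622, 698 and 706 CPM with PBS and 503, 471 and 486 CPM with NRG1 (-0.46 ± 0.14 SE, adjusted p = 0.184). Pklr was 48.5, 42.6 and 42.7 CPM against 30.9, 27.4 and 34.2 CPM (-0.53 ± 0.14, adjusted p = 0.132), and Pfkp 70.5, 67.2 and 70.6 CPM against 55.3, 38.3 and 52.9 CPM (-0.50, adjusted p = 0.176). In each the NRG1 libraries lay below the PBS libraries without overlap, as in 7 members in all (9.68% of all genes), against 1 member above (9%). Same-numbered mice of both treatments varied together in this gate, by a check that cannot establish pairing. With that number as a block 5 members were called (4.3% of all genes). These were Pfkp (-0.52, adjusted p = 0.0277), Pklr (-0.53, 0.0318), Ldha (-0.46, 0.0449), Epas1 (-0.67, 0.0102) and Ddit4 (0.92, 0.0195). Enterocyte markers summed to 5411 to 8205 CPM with PBS and 3071 to 6336 CPM with NRG1, and stem cell markers to 707 to 761 CPM and 1075 to 1598 CPM; their part was not tested.

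Hk2, lower with NRG1 in the gates above, was 22.4, 44.6 and 36.3 CPM with PBS and 19.8, 30.0 and 27.8 CPM with NRG1 in Lgr5low, where the groups overlapped (-0.40 ± 0.24 SE, adjusted p = 0.503). Gapdh was 248, 201 and 223 CPM against 206, 254 and 288 CPM, also overlapping (0.16, adjusted p = 0.702). Pkm was 105, 103 and 115 CPM against 85.4, 72.9 and 89.2 CPM, without overlap (-0.38 ± 0.13, adjusted p = 0.235). Vegfa and Hif1a overlapped between treatments, with changes of -0.27 and -0.01, and Ldhb was untested, at 0.0431 to 0.809 CPM in the NRG1 libraries.

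The 2 members named by the block that are no enzymes had these values in Lgr5low. Epas1 was 45.8, 27.4 and 46.7 CPM with PBS and 26.8, 19.8 and 27.0 CPM with NRG1, every NRG1 library being below every PBS library (-0.70 ± 0.21 SE, adjusted p = 0.172). Ddit4 was 10.4, 9.99 and 12.0 CPM against 25.2, 24 and 13.3 CPM, every NRG1 library being above (0.96 ± 0.23, adjusted p = 0.0918; 0.0253 without Lgr5low NRG1 replicate 3, within 2.68e-04 to 0.459 over all alternatives).

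In the Lgr5neg gate 1 of 33 members was called, Hk2, lower after NRG1, at a background of 0.328% of all genes (0.151% higher, 0.176% lower). Hk2 was 14.2, 14.0 and 6.498 CPM with PBS and 1.97, 3.55 and 2.27 CPM with NRG1, every NRG1 library being below the lowest PBS library. The change was -2.13 ± 0.35 SE, 4.38-fold (adjusted p = 0.0275). The call was lost without Lgr5neg PBS replicate 1 (adjusted p = 0.120), 2 (0.114) or 3 (0.0595) or Lgr5neg NRG1 replicate 3 (0.101), and in the 15-week-old mice alone (0.392), over a range of 1.96e-08 to 0.392, while the change itself stayed between -2.45 and -1.96.

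In Lgr5neg the median change was 0.08 for the members and 0.01 for all genes, with 19 changes above 0 and 14 below. NRG1 libraries lay wholly below PBS libraries in 2 members (8% of all genes) and wholly above in 2 (7.94%). Ldha was 1586, 1097 and 1503 CPM with PBS and 1233, 1219 and 1431 CPM with NRG1, overlapping (-0.10 ± 0.20 SE, adjusted p = 0.910), and Pkm was 334, 237 and 277 CPM against 299, 260 and 252 CPM. Gapdh was 652, 446 and 583 CPM against 645, 707 and 882 CPM (0.42 ± 0.20, adjusted p = 0.473). Hif1a was 42.7, 29.2 and 26.7 CPM against 35.6, 32.5 and 28.3 CPM, and Epas1 41.0, 31.4 and 37.3 CPM against 44.99, 38.5 and 35.1 CPM, both overlapping. Vegfa was 93.9, 53.7 and 47.9 CPM against 79.1, 31.1 and 34.7 CPM (-0.42 ± 0.41, adjusted p = 0.782), and Ldhb had 0 counts in all 6 libraries, whose floors were 0.197 to 0.247 CPM. By the same check, same-numbered mice varied together here too. With the number as a block 6 members were called (7.05% of all genes): Hk2, Vegfa (-0.49, adjusted p = 0.0169) and Fbp1 (-0.61, 0.0328) as lower, and Gapdh (0.42, 0.0383), Ndrg1 (0.54, 0.0395) and G6pc (0.69, 1.33e-04) as higher. Goblet markers summed to 4867 to 6873 CPM with PBS and 1243 to 3823 CPM with NRG1 in this gate, and the T lymphocyte list to 90.6 to 197 CPM and 54.6 to 435 CPM. The stem cell list, with 1 of 9 tested genes called lower, summed to 116 to 127 CPM and 75.9 to 99.5 CPM, without overlap. Their part was not tested.

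**Figure D4:**
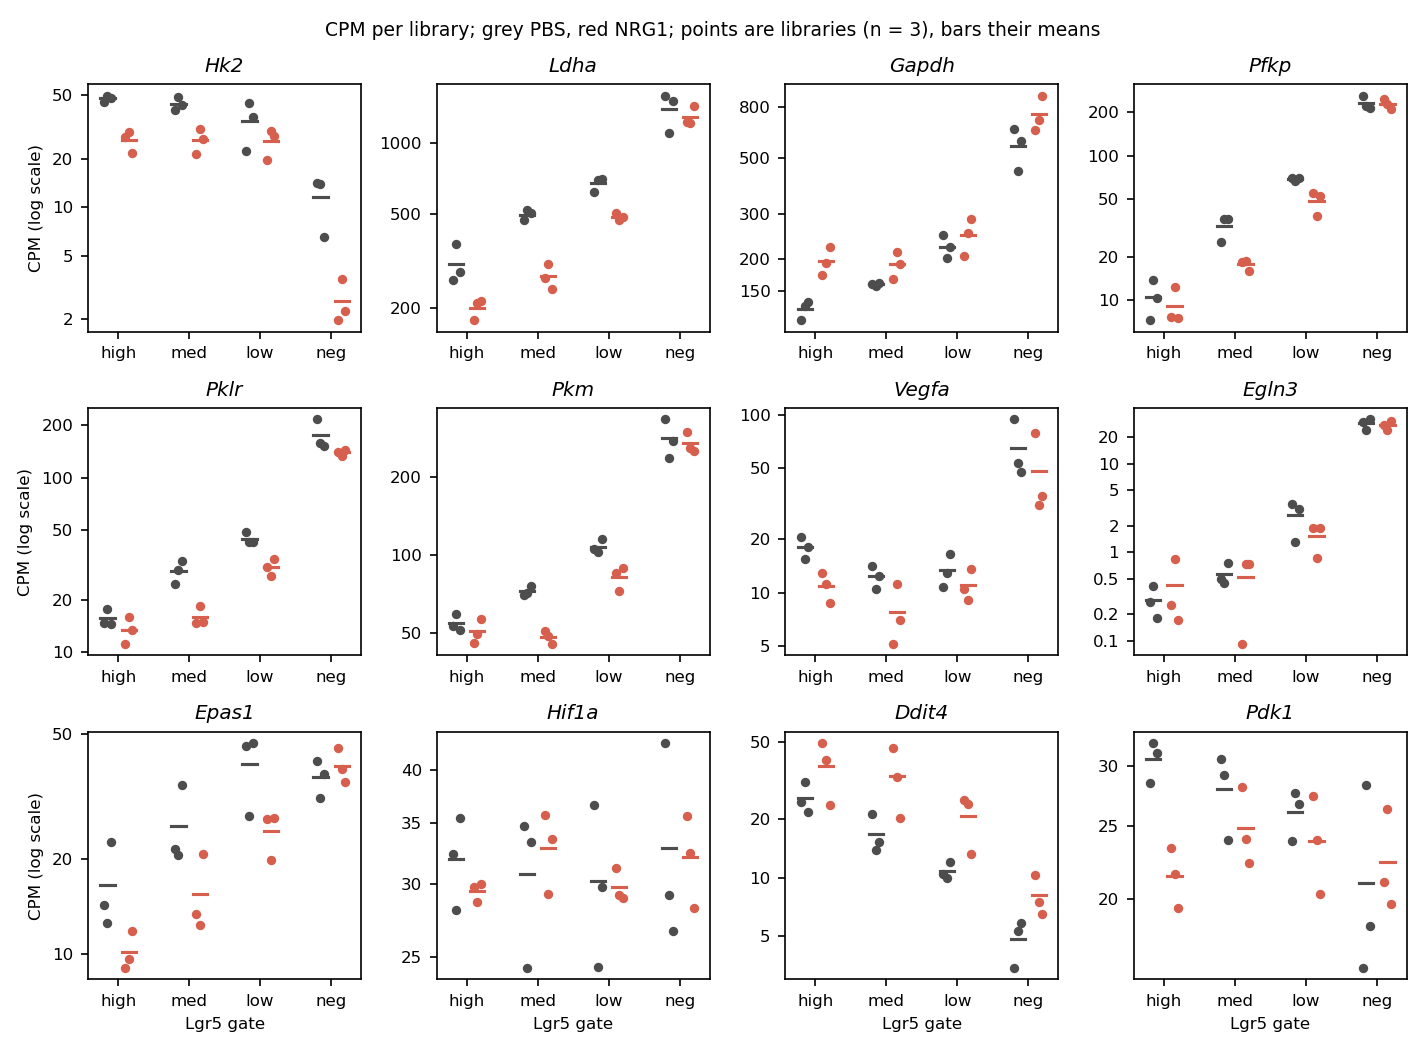
The CPM of 12 genes in each library (points, log scale on the vertical axis) is drawn for the 4 Lgr5 gates (horizontal axis) with PBS in grey and NRG1 in red, short bars marking the mean of 3 libraries. Hk2 separates by treatment in Lgr5high, Lgr5med and Lgr5neg, Ldha in the first 3 gates, and Hif1a in none.

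Across the 4 gates, 31 members were tested in each, of which 10 had a change below 0 in all 4 (Hk2, Pfkp, Eno1, Pkm, Pklr, Ldha, Pfkfb3, Egln1, Vegfa and Fbp1) and 5 a change above 0 in all 4 (Gpi1, Gapdh, Ddit4, Ankrd37 and G6pc). These counts come from the same mice in every gate, and most of the single changes behind them were not called. The share of all genes with the same sign in all 4 gates is not given here, so the counts cannot be read as particular to the members.

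Whether a member's response to NRG1 differed between gates was tested as an interaction, and no member was called in any of the 4 tests. These tests had no term for the mouse, so libraries of the same animal were treated as independent. Of all genes, 0% were called between Lgr5med and Lgr5high and between Lgr5low and Lgr5high, 0.0532% between Lgr5neg and Lgr5high and 0.0465% between Lgr5neg and Lgr5med. At an unadjusted p under 0.05 stood 6 of 35 members between Lgr5med and Lgr5high (3.83% of all genes at that threshold) and 3 between Lgr5low and Lgr5high (4.49%). Between Lgr5neg and Lgr5high 5 did so (8.66%), and between Lgr5neg and Lgr5med 9 (7.27%). DESeq2 called 0 members in all 4 tests. The change of Pklr in Lgr5med minus that in Lgr5high was estimated at -0.65 (95% interval -1.10 to -0.20), that of Pfkp at -0.70 (-1.27 to -0.12) and that of Pkm at -0.48 (-0.85 to -0.10), all with an adjusted p of 0.9999. The Hk2 change in Lgr5neg minus that in Lgr5high was -1.28 (-2.07 to -0.48, adjusted p = 0.281), and minus that in Lgr5med -1.40 (-2.19 to -0.60, adjusted p = 0.268). The Ldha change was 0.76 higher in Lgr5neg than in Lgr5med (0.32 to 1.20, adjusted p = 0.268). The calls made in some gates and not in others are therefore not shown to differ between gates.

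Isoenzyme make-up, set per kilobase of all annotated exons of a gene, shifted along the axis. These exons together can be longer than the RNA present in the cells, so the level of each share depends on that length. The Pfkp share also carries the overlap with Pitrm1 given above. In PBS mice Hk2 made up 84.1% ± 5.77 (SD, n = 3) of the signal of the 3 measured hexokinase genes in Lgr5high, 68.0% ± 8.59 in Lgr5med, 38.3% ± 6.55 in Lgr5low and 3.90% ± 1.36 in Lgr5neg. Hkdc1, a hexokinase-domain gene that is no member, filled the rest, at 95.4% in Lgr5neg, and the family's sum was 9.56 CPM per kb in Lgr5high and 49.2 in Lgr5neg. With NRG1 the sum was 5.14 and 37.4 CPM per kb, and the Hk2 share was 86.0% ± 3.505 in Lgr5high and 1.20% ± 0.417 in Lgr5neg. Pfkp made up 16.7% of the phosphofructokinases in Lgr5high, 39.3% in Lgr5med, 58.0% in Lgr5low and 83.8% in Lgr5neg of PBS mice, and 29.9% in Lgr5med of NRG1 mice. Egln3 went from 0.504% of the 3 prolyl hydroxylase genes in Lgr5high to 30.9% in Lgr5neg. Epas1 made up 32.3% ± 2.35 of the HIF alpha signal in Lgr5high and 55.3% ± 3.63 in Lgr5low of PBS mice, against 25.6% ± 3.01 and 44.3% ± 3.71 with NRG1.

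**Figure D5:**
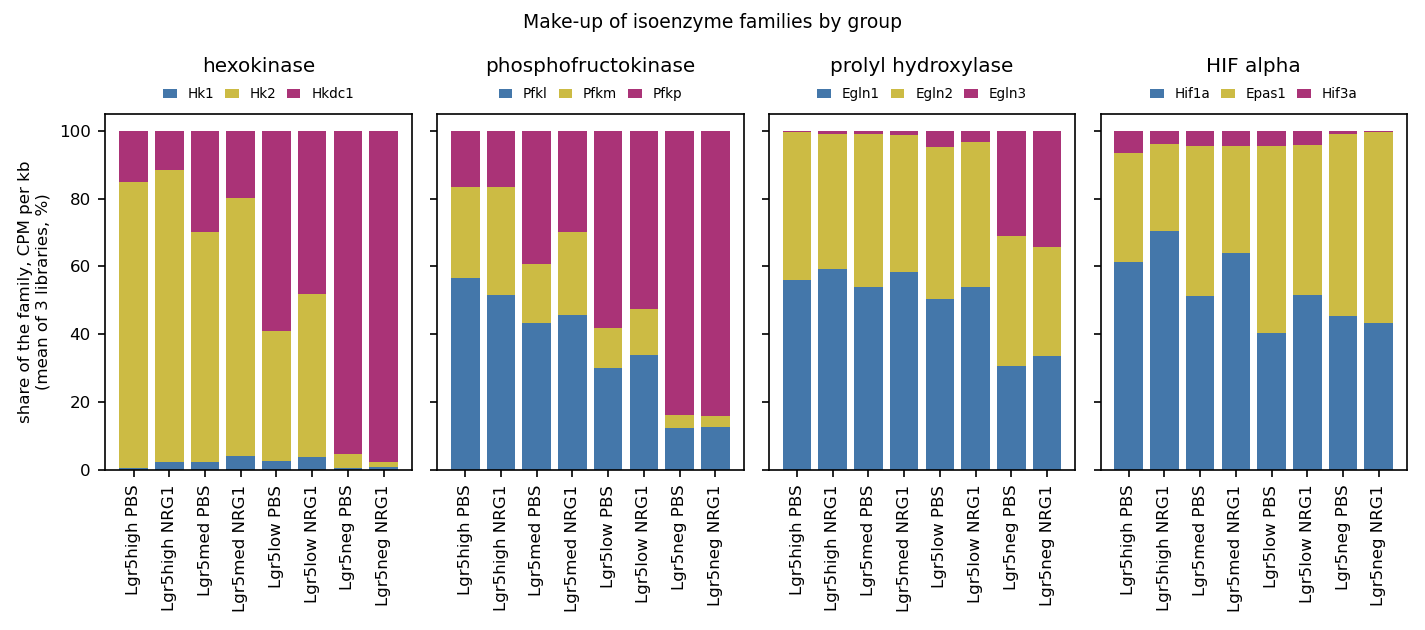
Stacked bars give the mean share of each gene in its family (vertical axis, percent of CPM per kb, mean of 3 libraries) for the 8 groups (horizontal axis). Hk2 gives way to Hkdc1, and Pfkl to Pfkp, from Lgr5high to Lgr5neg in both treatments, and Egln3 is visible mainly in Lgr5neg.

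Other genes of the same pathways were read from lists of 54 glycolysis and gluconeogenesis genes (52 in the table) and 48 hypoxia-response genes. Of all genes tested, 7.33% were called after NRG1 in Lgr5high (3.18% higher, 4.15% lower) and 9.55% in Lgr5med (3.76% higher, 5.79% lower). In Lgr5low and Lgr5neg these shares were 0.443% and 0.328%. Of the glycolysis list, 4 of 46 tested were called lower after NRG1 in Lgr5high, the largest change being in Pdp1 (-1.21), a pyruvate dehydrogenase phosphatase, followed by Khk (-0.76), the fructokinase. In Lgr5med 6 of 47 were lower, led by Hkdc1 (-1.52), the glucose transporter gene Slc2a2 (-1.32) and Khk (-0.99), and 2 were higher, Pdk3 (0.90) and Txnip (0.58). In Lgr5low Khk (-0.93, adjusted p = 0.0425) was the only call, and in Lgr5neg there was none. Of the hypoxia list, 3 were higher and 3 lower of 34 tested in Lgr5high: Ccng2 (0.89), Narf (0.84) and the carbonic anhydrase Car9 (0.47), against Higd1a (-1.01), Mif (-0.72) and Fam162a (-0.53). In Lgr5med 4 were higher, Ccng2 (1.07), Zfp292 (0.73), Bnip3l (0.63) and Tfrc (0.53), and 1 lower, Arnt (-0.45), the partner of the HIF alpha subunits. In Lgr5low and Lgr5neg none of 35 and 32 was called. Along the axis in PBS mice, 26 of 48 tested glycolysis genes were lower and 11 higher in Lgr5low than in Lgr5neg. Of 36 tested hypoxia genes, 16 were lower and 7 higher. Of all genes, 55.8% were called at that step, 30.6% higher and 25.3% lower.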

How the data were processed

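The deposited table holds whole-number counts per gene symbol for the 24 libraries. The authors aligned with STAR, counted with featureCounts and used GRCm38, per the submitters' processing notes; versions, annotation release and strand setting are not given in the sources used here. Libraries were made with the NuGEN Ovation RNA-Seq V2 kit, per the labels' protocols.

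Counts were tested in R 4.3.3 with edgeR 4.0.16 (quasi-likelihood test, TMM scaling, Benjamini-Hochberg adjustment over all genes tested, called at an adjusted p under 0.05), after a filter of at least 10 counts in enough libraries and 15 in all (filterByExpr). NRG1 was tested against PBS on the 6 libraries of a population, gates on the 12 libraries of a treatment, and interactions on all 24. The gate and interaction tests had no term for the mouse, although each mouse gave a library of every population. The tests and the procedure were checked on simulated data. Printed CPM use TMM over the 24 libraries, and exon lengths and positions are from GENCODE vM21. Alternatives were DESeq2 1.42.0, its size factors within edgeR, no filter, removal of mitochondrial ribosomal RNA, all 24 libraries in 1 model, a block for mouse or replicate number, leaving out each library and, chosen after seeing the data, the 15-week-old mice alone. Floors cover counting error only.

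The members and gene lists were chosen with earlier results of these data known. Values of every library are printed for the 6 called members with the largest change in each NRG1 comparison, the 5 in each step between neighbouring gates of PBS mice, and Hif1a, Epas1, Ldha, Ldhb, Gapdh, Pkm, Hk2 and Vegfa; those of Aldoa in later gates, Ddit4, Pdk1 in Lgr5neg and other single members were added after their values were seen.

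Pairing was checked by correlating each library's deviations from its group mean across genes. Same-numbered NRG1 and PBS libraries, which are different mice, correlated at 0.131 to 0.173 in Lgr5low and 0.102 to 0.180 in Lgr5neg. Libraries of different numbers correlated at -0.132 to -0.0413 in Lgr5low and -0.135 to -0.0272 in Lgr5neg, so the ranges separated. Deviations cancel out within a group, so higher values at the same number force lower ones at the others. All gates also come from the same mice, so this check cannot establish that the number pairs them. In Lgr5med same-numbered libraries correlated at 0.0701 to 0.207 and the others at -0.183 to 0.0503, so they separated there too. In Lgr5high same-numbered libraries correlated at 0.0695 to 0.227 and the others at -0.151 to 0.0704, which overlapped. Populations of a treatment share their mice. Replicate libraries differed beyond sampling noise (chi-square per degree of freedom 12.3 to 102.9).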

Additional observations from a re-analysis of the deposited data

How the results depend on the processing

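Counts of called members moved by over 1.5 times under these settings. Without the filter on low counts, NRG1 against PBS gave 8 in Lgr5high, 11 in Lgr5med, 4 in Lgr5low and 2 in Lgr5neg; Lgr5high against Lgr5med gave 10 in PBS and 6 in NRG1 mice; Lgr5med against Lgr5low gave 13 in NRG1 mice; and the interactions of Lgr5neg with Lgr5high and Lgr5med gave 1 and 3. With 24 libraries in 1 model, Lgr5high gave 3. DESeq2 gave 2 for NRG1 in Lgr5low, and 4 and 8 for the first and middle step in NRG1 mice. With the replicate block, NRG1 gave 12 in Lgr5med, 5 in Lgr5low and 6 in Lgr5neg, and the middle step 11 in both sets of mice and the first step 5 in NRG1 mice. In Lgr5high the replicate block gave 7. By the check used, same-numbered mice varied together in Lgr5med as in Lgr5low and Lgr5neg, and did not stand apart in Lgr5high. The 15-week-old mice alone gave 0 for NRG1 in Lgr5neg, 3 and 2 for the first and middle step in PBS mice and 0 and 1 in NRG1 mice. The share of all genes called moved with the setting too. For NRG1 with the replicate block it went from 0.443% to 4.3% in Lgr5low and from 0.328% to 7.05% in Lgr5neg. With DESeq2 it was 2.6% in Lgr5low. Where no share is printed for a setting, here and below, the count of called members is no result about the members. The cause was not tested.

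Leaving out 1 library gave 4 to 5 calls for NRG1 in Lgr5high, 4 to 8 in Lgr5med, 0 to 1 in Lgr5low and 0 to 1 in Lgr5neg. The steps of PBS mice gave 4 to 8, 3 to 9 and 20 to 22, those of NRG1 mice 0 to 2, 4 to 7 and 23 to 26, and the interactions 0. Size factors and removal of mitochondrial ribosomal RNA moved no count so far. Of the values of single members under alternatives, 10936 kept direction and side of the threshold, 158 passed it anew, 115 no longer passed and 0 reversed a call. Counts below the floor limit Ldhb, Eno2, P4ha2 and Egln3. With 3 mice a group, p-values measure the spread between these animals only.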
